A study of Mus musculus with 12 samples.

Results

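Genes of mitosis and of the G2/M step of the cell cycle were described in leukemic long-term hematopoietic stem cells (LTHSC), the most primitive stem cell fraction of the bone marrow. The gene set was a fixed list of 51 symbols, matched to the Ensembl identifiers of the deposited table; all 51 were found among its 48795 genes, and all 51 were among the 14756 that passed the filter on low counts. The rule used no measured value, but the genes were chosen with earlier results of these data known. The list was divided into 10 roles.

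RNA was sequenced from 12 libraries, 4 in each of 3 groups. All mice were C57BL/6 and carried chronic myeloid leukemia (CML), a stem cell disease of the blood. The groups were Cre-negative mice (No_Cre), Tek-Cre mice (Tek_Cre) and Prx1-Cre mice (Prx1_Cre), and according to its title the series addressed whether Cxcl12 made in the mesenchymal niche keeps leukemia stem cells quiescent. As background, the Tek promoter drives Cre in endothelial cells and also in blood-forming cells, whereas the Prx1 promoter drives it in mesenchymal stromal cells of the limb marrow. The labels state neither the leukemia model nor the alleles at Cxcl12, and they name the animals recipients in one field and primary mice in another. The LTHSC were sorted on surface markers into lysis buffer, and libraries were made with an ultra-low input SMARTer kit and Nextera XT.

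A cell that is about to divide accumulates cyclin B and its partner kinase CDK1, which together start mitosis, condense the chromosomes and open the nuclear envelope. The spindle then captures chromosomes at their kinetochores, a checkpoint holds the cell until every kinetochore is attached, and the anaphase-promoting complex (APC/C) with CDC20 releases the sister chromatids. Most of these genes are transcribed only late in the cell cycle, so their RNA is low in resting cells; stem cells of normal marrow are mostly at rest.

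Total counts ranged from 15715603 to 28860324 per library, and the 4 libraries of a group lay close together: their common biological coefficient of variation came to 3.46% (No_Cre), 5.23% (Tek_Cre) and 6.85% (Prx1_Cre). Small differences passed the test in many genes. The design text calls the libraries biological replicates; p-values measure only the spread between these libraries. In bulk RNA, a smaller number of cells of one kind and less RNA in each cell cannot be told apart. Of the LTHSC markers, 12 of 12 passed the filter on low counts, which a gene can pass through the 4 libraries of 1 group. Their summed level was 2705 to 2755 CPM (read counts normalised to library size) in No_Cre, 3178 to 3234 CPM in Tek_Cre and 1605 to 1622 CPM in Prx1_Cre; genes that mark neutrophils and their precursors, such as Mpo and Elane, were also counted and summed to 28398 to 28711, 35802 to 36297 and 49424 to 51623 CPM in the same order. In Tek_Cre against No_Cre the neutrophil genes divided. There, 5 of 9 were higher, such as S100a8 (0.85 ± 0.09 as log2 fold change ± SE). The other 4 of 9 were lower, Prtn3, Elane, Mpo and Ctsg, down to -2.35 ± 0.04 for Ctsg. Of all genes tested, 26.4% were higher and 26.5% lower in that comparison. In Prx1_Cre against No_Cre 7 of 9 were higher and 1 lower, beside 36.7% and 39.0% of all genes tested.

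The mitosis and G2/M genes were high in Prx1_Cre, intermediate in No_Cre and low in Tek_Cre. Their summed level was 4743 to 4789 CPM in the 4 No_Cre libraries, 3853 to 3985 CPM in Tek_Cre and 7754 to 7872 CPM in Prx1_Cre, and no library of one group fell within the range of another. In Prx1_Cre against No_Cre, 49 of the 51 rose, against 36.7% of all genes tested, and 1 fell (Cdc25b), against 39.0% of all genes tested; Pttg1 did not pass the test. The median log2 fold change of the 51 genes was 0.76 (range -0.20 to 1.51) beside -0.02 over all genes. In a stricter test against a 1.5-fold change, 31 rose (background 12.5%) and 0 fell, against 18.3%. The library values of the groups did not overlap for 48 genes that were higher in Prx1_Cre (33.2% of all genes) and for 1 that was lower (35.4%).

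In Tek_Cre against No_Cre the changes were smaller and pointed down. There, 36 of the 51 genes fell, against 26.5% of all genes tested, and 1 rose (Pttg1), against 26.4%; the other 14 did not pass the test. The median log2 fold change was -0.29 (range -0.81 to 0.14) beside 0.00 over all genes. Past the 1.5-fold limit 1 gene fell (Espl1, the protease separase; background 5.35%), and 0 rose (background 7.08%); with library totals as the only scaling, which lowers the median of all genes to -0.346, 22 fell past it. Library values did not overlap for 38 genes that were lower in Tek_Cre, against 24.5% of all genes, and for 0 that were higher, against 24.3%. Both comparisons use the same 4 No_Cre libraries.

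The direct comparison of the Cre lines gave the widest separation. In Prx1_Cre against Tek_Cre 50 of the 51 genes were higher (background 37.8%) and 1, Pttg1, was lower (background 39.8%). The median log2 fold change was 1.04 beside -0.01 over all genes, 44 genes were higher past the 1.5-fold limit (background 15.1%), and 0 were lower past it (background 20.4%). The groups' library values did not overlap for any of the 51 genes, 50 of them higher in Prx1_Cre (background 33.5%) and 1 lower (background 35.9%). The comparison shares its libraries with the others above.

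**Figure D1:**
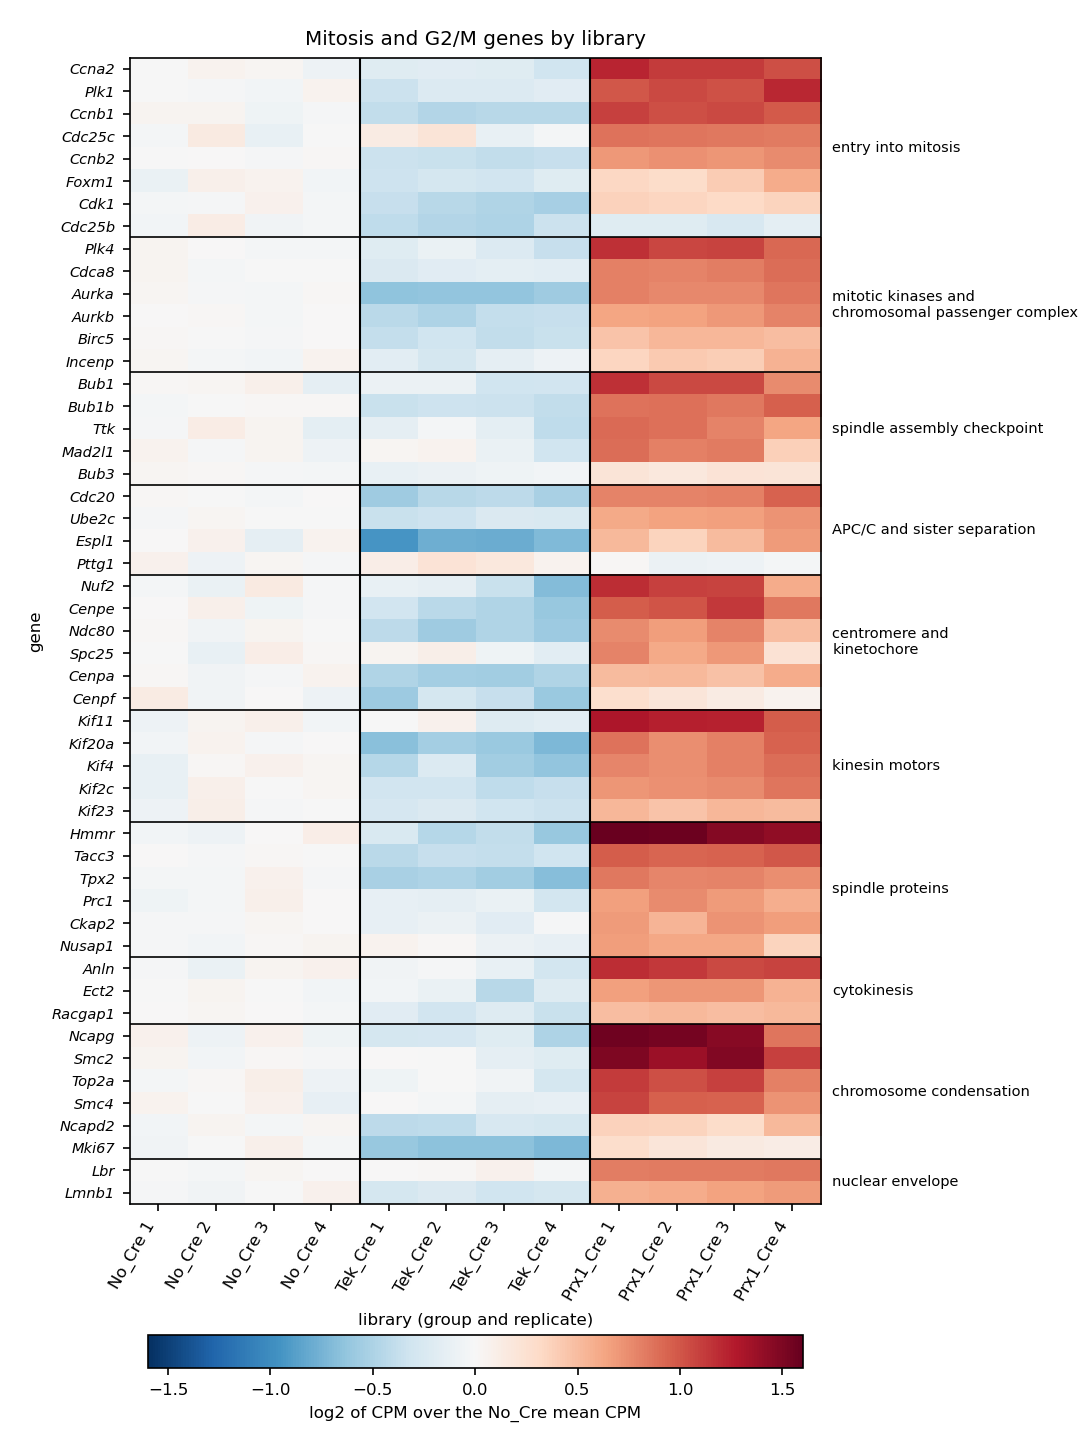
Level of each of the 51 genes (rows, grouped by role) in each of the 12 libraries (columns), as the log2 ratio of its CPM to the mean CPM of the 4 No_Cre libraries. The 4 Prx1_Cre columns are high for nearly all genes, Cdc25b and Pttg1 excepted, and the 4 Tek_Cre columns are lowest for most of them.

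Levels of other genes also differed between these groups. Beside the list counts that follow, 36.7% of all genes tested were higher and 39.0% lower in Prx1_Cre than in No_Cre. In Tek_Cre against No_Cre the shares were 26.4% and 26.5%. The erythroid list (13 of 13 tested) summed to 1708 to 1753 CPM in No_Cre, 1248 to 1300.3 CPM in Tek_Cre and 6353 to 6433 CPM in Prx1_Cre, with 13 of 13 genes higher in Prx1_Cre than in No_Cre and 10 of 13 lower in Tek_Cre than in No_Cre. Klf1, the erythroid transcription factor, stood at 29.1, 10.03 and 257 CPM in No_Cre, Tek_Cre and Prx1_Cre. The plasma cell list ran the other way, at 776 to 795, 2524 to 2577 and 271 to 277 CPM, with 7 of 7 genes lower in Prx1_Cre and 7 of 7 higher in Tek_Cre than in No_Cre. Immunoglobulin genes held 7.31 to 7.71%, 25.2 to 26% and 0.296 to 0.31% of a library's counts in No_Cre, Tek_Cre and Prx1_Cre. Of the LTHSC markers, 11 of 12 were lower in Prx1_Cre and 8 of 12 higher in Tek_Cre than in No_Cre. The B cell list summed to 92.9 to 98.6, 179.8 to 190.5 and 28.2 to 33.1 CPM, and its factor Pax5 was at 0 in Tek_Cre and in Prx1_Cre. The T and natural killer (NK) cell list summed to 392.6 to 404.6, 201.6 to 219.8 and 263.3 to 272.1 CPM in No_Cre, Tek_Cre and Prx1_Cre. Of its 4 genes tested, 2 were higher and 2 lower in Tek_Cre than in No_Cre, and 4 were lower in Prx1_Cre. The T cell gene Cd3e was at 0 in No_Cre and Prx1_Cre, and the plasma cell factor Irf4 was at 0 in Prx1_Cre. Further lists had another order, with summed levels highest in No_Cre and lowest in Prx1_Cre. In No_Cre, Tek_Cre and Prx1_Cre the megakaryocyte list averaged 1310, 1084 and 822 CPM and the multipotent progenitor list 562, 381 and 353 CPM. The eosinophil, mast cell and basophil list averaged 2763, 2595 and 1097 CPM. The endothelial list averaged 105.5, 81.9 and 68.5 CPM and the stroma list 79.3, 64.6 and 45.9 CPM. Mitochondrially encoded genes summed to 912 to 1107, 1068 to 1253 and 2467 to 3914 CPM, and immediate early genes, which respond to handling, to 19975 to 21858, 15462 to 16539.8 and 10210.2 to 11181 CPM. Within Prx1_Cre, replicate 4 was the lowest library for several genes, among them Nuf2, Ncapg, Kif11 and Bub1, and the highest for others, among them Plk1, Cdc20 and Foxm1. The part of these cells and of RNA quality in the levels of the mitosis genes was not tested.

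Mitosis genes are known to share promoter elements, a cell cycle genes homology region (CHR) bound by the DREAM and MYB-MuvB complexes and CCAAT boxes bound by NF-Y, and the promoters were read for these letters. RefSeq windows on GRCm38.p6, from 250 bases before to 50 after a gene's start, were matched for 42 of the 51 genes (45 windows). The CHR was searched as TTTGAA or TTCGAA and the CCAAT box as CCAAT, each on both strands; TTCGAA reads the same on either strand, and neither motif contains the other. A CHR match was in 80.0% of the 45 windows, against 19.2% of all 32851 windows of the table. A CCAAT match was in 77.8% of them, against 37.4%, and both were in 73.3%, against 7.52%. By gene, 33 of 42 held a CHR match, 32 a CCAAT match and 30 both. The median position of the CHR matches was -15 bases from the start in these genes and -125 bases from it in all promoters, and 29 of the 42 genes (69.0%) held one from 50 bases before the start onwards, against 5.29% of all genes. CCAAT matches lay at a median of -67.5 bases from the start, against -91 in all promoters. A match is a description of the letters and not of a factor's binding.

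The promoters of 4 genes are shown because these genes hold a CHR match and had the largest rise in Prx1_Cre over No_Cre among those described by library below, so that the letters can be set beside the values. Each is written 5′ to 3′ on the gene's own strand from RefSeq (GRCm38.p6), with CHR and CCAAT matches in capitals. The windows are chr11:40733388-40733687 on the minus strand for Hmmr, chr5:45669675-45669974 on the plus strand for Ncapg, chr19:37376132-37376431 on the plus strand for Kif11 and chr9:22389157-22389456 on the minus strand for Anln.
Hmmr: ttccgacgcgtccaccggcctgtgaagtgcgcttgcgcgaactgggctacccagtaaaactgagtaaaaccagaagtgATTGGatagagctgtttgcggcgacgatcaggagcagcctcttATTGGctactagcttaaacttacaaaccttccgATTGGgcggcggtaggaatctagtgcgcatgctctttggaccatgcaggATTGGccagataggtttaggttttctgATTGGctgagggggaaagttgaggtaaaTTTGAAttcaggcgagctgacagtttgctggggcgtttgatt
Ncapg: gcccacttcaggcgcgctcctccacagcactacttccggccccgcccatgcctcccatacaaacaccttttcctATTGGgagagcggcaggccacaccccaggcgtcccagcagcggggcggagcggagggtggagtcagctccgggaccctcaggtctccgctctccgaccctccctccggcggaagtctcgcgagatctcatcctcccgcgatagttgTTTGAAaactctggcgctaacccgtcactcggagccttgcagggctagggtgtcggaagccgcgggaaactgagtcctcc
Kif11: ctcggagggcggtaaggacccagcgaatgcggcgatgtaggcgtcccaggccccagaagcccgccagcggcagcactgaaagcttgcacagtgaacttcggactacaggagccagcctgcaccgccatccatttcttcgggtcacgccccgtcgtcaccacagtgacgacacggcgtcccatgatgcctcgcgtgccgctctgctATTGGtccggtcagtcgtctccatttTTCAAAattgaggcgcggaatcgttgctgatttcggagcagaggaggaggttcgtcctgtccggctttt
Anln: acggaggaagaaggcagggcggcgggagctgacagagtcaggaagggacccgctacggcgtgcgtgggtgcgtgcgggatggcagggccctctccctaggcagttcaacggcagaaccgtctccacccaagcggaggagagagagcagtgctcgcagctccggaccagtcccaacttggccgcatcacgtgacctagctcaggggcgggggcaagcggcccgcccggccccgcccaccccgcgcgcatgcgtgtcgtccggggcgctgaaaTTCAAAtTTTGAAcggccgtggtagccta
The Hmmr window holds 5 CCAAT matches, all written as ATTGG on the gene's strand, and 1 CHR match. The Ncapg and Kif11 windows hold 1 of each, and the Anln window holds 2 CHR matches, both after the start, and 0 CCAAT matches.

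Genes with and without these letters overlapped in the size of their change. The 30 genes with both matches had log2 fold changes in Prx1_Cre against No_Cre from -0.20 to 1.51 with a median of 0.70, and the other 12 from -0.05 to 1.11 with a median of 0.86. Cdc25b, Cenpf, Mki67, Bub3 and Cdk1, whose changes were among the smallest, held both matches. So did Hmmr, Ncapg, Smc2 and Kif11, with log2 fold changes of 1.51, 1.38, 1.37 and 1.19. Pttg1, which did not pass the test, held neither. Birc5, Nusap1, Mad2l1, Tacc3, Nuf2 and Plk4 also held neither, and they rose by log2 fold changes of 0.50, 0.57, 0.75, 0.96, 1.01 and 1.06. A link between the letters and the changes was not tested.

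**Figure D2:**
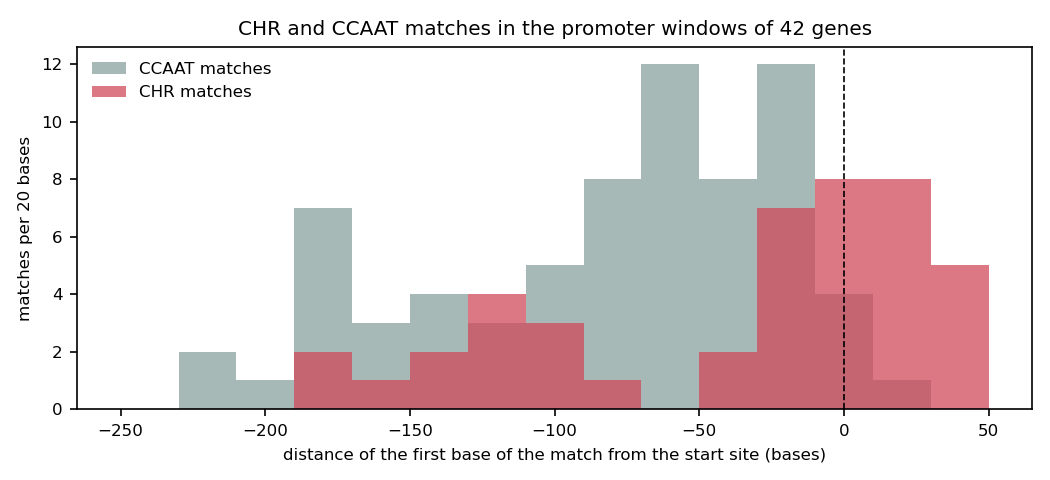
Number of CHR and CCAAT matches per 20 bases (vertical axis) by distance from the gene's start (horizontal axis, in bases, negative before the start) in the promoter windows of the 42 genes with a RefSeq window. CHR matches gather close to the start, with a median at -15, and CCAAT matches lie before them, with a median at -67.5.

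Among 8 genes of entry into mitosis, 7 rose and 1 fell in Prx1_Cre against No_Cre (median log2 fold change 0.79), and 7 fell in Tek_Cre (median -0.32). For this and each later role, the shares of all genes tested were 36.7% higher and 39.0% lower in Prx1_Cre against No_Cre. In Tek_Cre against No_Cre they were 26.4% higher and 26.5% lower. Cdk1 (chr10:69335146-69352938), the kinase that drives mitosis, stood at 118, 118, 126 and 117 CPM in No_Cre, 92.99, 87.7, 85.9 and 83.03 CPM in Tek_Cre and 155, 152, 149.5 and 153 CPM in Prx1_Cre. All 4 Prx1_Cre libraries were above the No_Cre range, and all 4 Tek_Cre libraries were below it. The change was 0.34 ± 0.04 (log2 fold change ± SE) in Prx1_Cre against No_Cre (edgeR quasi-likelihood test, Benjamini-Hochberg adjusted p = 5.34e-08) and -0.45 ± 0.04 in Tek_Cre against No_Cre (adjusted p = 3.85e-09). Ccnb1 (chr13:100778650-100786570), the cyclin that activates CDK1, stood at 28.9, 28.96, 26.6 and 27.6 CPM in No_Cre, 21.4, 20.3, 20.6 and 20.6 CPM in Tek_Cre and 59.6, 57.2, 58.3 and 55.4 CPM in Prx1_Cre. Its mean in Prx1_Cre was 2.06-fold that in No_Cre (1.04 ± 0.05, adjusted p = 9.19e-15), and the groups did not overlap. The cyclin and its kinase also both fell in Tek_Cre, with log2 fold changes of -0.43 and -0.45. Ccnb2, the other B-type cyclin, stood at 147, 147, 146 and 149.7 CPM in No_Cre, 116, 115, 112 and 114 CPM in Tek_Cre and 238, 244, 241 and 248.5 CPM in Prx1_Cre. Ccna2 (chr3:36564865-36572150), the cyclin A of S phase and G2, had values of 112, 118, 116 and 107 CPM in No_Cre, 98.99, 99.6, 99.3 and 90.6 CPM in Tek_Cre and 263, 245, 245 and 232 CPM in Prx1_Cre. Both cyclins kept the order of the groups without overlap, with a log2 fold change in Prx1_Cre against No_Cre of 0.72 ± 0.03 for Ccnb2 and 1.12 ± 0.04 for Ccna2. Ccna2 shares exon sequence with Exosc9 on the opposite strand, and the strand setting of the counting is not given in the sources used here.

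Plk1, the polo-like kinase that acts on CDK1's activators, stood at 89.5, 88.6, 87.1 and 93.3 CPM in No_Cre, 70.8, 77.3, 76.8 and 78.9 CPM in Tek_Cre and 179, 187, 182 and 207 CPM in Prx1_Cre. Every Prx1_Cre library was above every No_Cre library, and every Tek_Cre library was below; the log2 fold change was 1.07 ± 0.05 in Prx1_Cre against No_Cre (adjusted p = 1.02e-15) and -0.24 ± 0.05 in Tek_Cre against No_Cre (adjusted p = 0.000271). Foxm1, the transcription factor of late cell cycle genes, stood at 51.6, 58.6, 57.6 and 53.8 CPM in No_Cre, 43.98, 45.7, 44.6 and 48.3 CPM in Tek_Cre and 69.6, 67.7, 73.2 and 83.3 CPM in Prx1_Cre. Its groups kept the same order without overlap, and in Prx1_Cre it rose by a log2 fold change of 0.41 ± 0.06 (adjusted p = 1.58e-06). Phosphatases of the CDC25 family remove the inhibitory phosphates of CDK1. Cdc25b (chr2:131186949-131198497) stood at 42.2, 46.97, 41.8 and 42.4 CPM in No_Cre, 32.7, 31.3, 30.7 and 34.2 CPM in Tek_Cre and 37.9, 37.9, 36.4 and 38.99 CPM in Prx1_Cre. It was highest in No_Cre, where replicate 2 stood above the rest, and it fell both in Prx1_Cre (-0.20 ± 0.05, adjusted p = 0.00215) and in Tek_Cre (-0.42 ± 0.06, adjusted p = 1.1e-06), with no overlap. Cdc25c, the other such phosphatase of the list, had means of 19.5 ± 1.47, 20.2 ± 2.05 and 35.2 ± 0.4901 CPM (SD, n = 4) in No_Cre, Tek_Cre and Prx1_Cre. It rose in Prx1_Cre (0.85 ± 0.07) and did not pass the test in Tek_Cre (0.04 ± 0.07, adjusted p = 0.64).

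**Figure D3:**
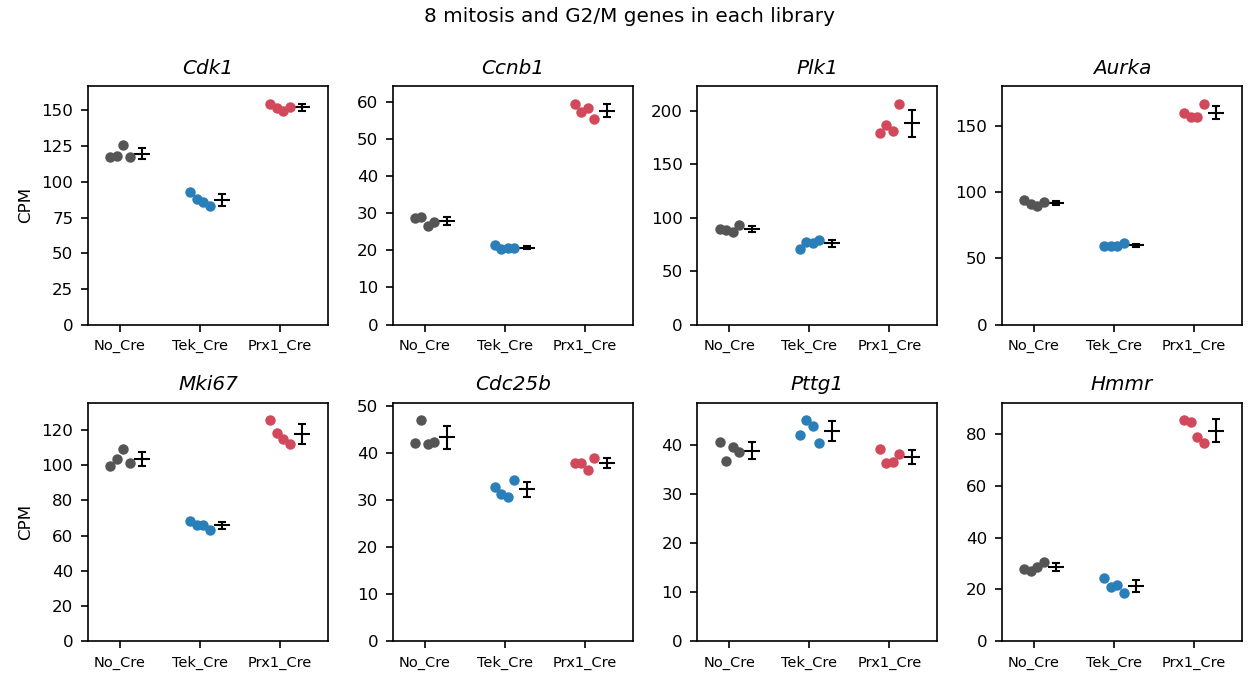
Normalised level (CPM, vertical axis from 0) of 8 genes in each library, 1 point per library, beside the mean of the group with bars of 1 SD. Cdk1, Ccnb1, Plk1, Aurka and Hmmr are highest in Prx1_Cre and lowest in Tek_Cre, Mki67 keeps this order with means of 104, 65.8 and 118 CPM in No_Cre, Tek_Cre and Prx1_Cre, and Cdc25b and Pttg1 do not rise in Prx1_Cre.

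All 6 genes of the mitotic kinases and the chromosomal passenger complex rose in Prx1_Cre and 6 of 6 fell in Tek_Cre, with medians of 0.75 and -0.30. Aurka, the kinase of spindle poles, stood at 93.6, 90.7, 89.8 and 92.6 CPM in No_Cre, 58.9, 59.04, 59.3 and 61.7 CPM in Tek_Cre and 159.9, 156, 157 and 167 CPM in Prx1_Cre. The gap between the Cre lines was wide, with means of 159.9 ± 4.76 CPM in Prx1_Cre and 59.7 ± 1.301 CPM in Tek_Cre (SD, n = 4). It rose by a log2 fold change of 0.80 ± 0.04 in Prx1_Cre (adjusted p = 5.18e-15) and changed by -0.62 ± 0.04 in Tek_Cre (adjusted p = 8.49e-12). Aurkb, the kinase of the passenger complex, stood at 137, 139, 134 and 138 CPM in No_Cre, 102, 97.2, 104.96 and 106 CPM in Tek_Cre and 213, 214, 222 and 236 CPM in Prx1_Cre, and its groups did not overlap. The complex also holds the scaffold INCENP, survivin (Birc5) and borealin (Cdca8). Incenp stood at 173, 166, 164 and 176 CPM in No_Cre, 150.4, 139, 153 and 160.4 CPM in Tek_Cre and 216, 227, 223 and 250.5 CPM in Prx1_Cre. For Birc5 the values were 119, 117, 117 and 119 CPM in No_Cre, 90.3, 94.7, 89.6 and 92.3 CPM in Tek_Cre and 162, 169.97, 171 and 166 CPM in Prx1_Cre. Those of Cdca8 were 171, 163, 165 and 165 CPM in No_Cre, 142, 146, 149 and 148 CPM in Tek_Cre and 291, 289, 293 and 308 CPM in Prx1_Cre. The order of the groups was the same in these 3 genes, without overlap, with log2 fold changes in Prx1_Cre against No_Cre of 0.43 ± 0.05, 0.50 ± 0.04 and 0.83 ± 0.04, and in Tek_Cre against No_Cre of -0.17 ± 0.05, -0.36 ± 0.04 and -0.18 ± 0.04. Exons of Cdca8 overlap those of 9930104L06Rik on the opposite strand. Plk4, which starts centriole duplication, stood at 35.4, 34.4, 33.6 and 33.5 CPM in No_Cre, 30.02, 31.7, 29.3 and 26.5 CPM in Tek_Cre and 76.8, 72.03, 72.5 and 64.7 CPM in Prx1_Cre. Its groups did not overlap, and it was 2.09-fold higher in Prx1_Cre than in No_Cre (1.06 ± 0.06, adjusted p = 6.89e-14).

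Genes of the spindle assembly checkpoint, which delays anaphase, rose in Prx1_Cre in 5 of 5 cases (median 0.81), and 2 of 5 fell in Tek_Cre (median -0.19). With so few genes, the Tek_Cre count is near the background of 26.5%. Bub1, a checkpoint kinase, stood at 28.7, 28.9, 29.8 and 25.7 CPM in No_Cre, 26.5, 26.5, 22.6 and 22.9 CPM in Tek_Cre and 63.8, 58.9, 58.96 and 47.7 CPM in Prx1_Cre. The Tek_Cre and No_Cre values overlapped, and the fall there was -0.21 ± 0.08 (adjusted p = 0.0394), which did not pass the test without any 1 of 5 libraries: No_Cre replicates 1, 2 and 3 and Tek_Cre replicates 3 and 4 (adjusted p 0.0694 to 0.115). In Prx1_Cre it was 2.03-fold higher than in No_Cre (1.02 ± 0.08, adjusted p = 1.96e-11). Bub1b, the related BUBR1 protein, stood at 150.1, 152, 155 and 155 CPM in No_Cre, 119.7, 121, 121 and 116 CPM in Tek_Cre and 279, 282, 275 and 296 CPM in Prx1_Cre, with no overlap. Bub3, their partner, which is expressed well beyond mitosis, stood at 304, 301, 294 and 291 CPM in No_Cre, 274, 279.5, 285 and 288 CPM in Tek_Cre and 344, 334, 346 and 343 CPM in Prx1_Cre. Its groups did not overlap, and it had the smallest change of the checkpoint genes, 0.20 ± 0.03 in Prx1_Cre (adjusted p = 1.37e-05) and -0.08 ± 0.03 in Tek_Cre (adjusted p = 0.0576). Mad2l1, which encodes the checkpoint effector MAD2, had means of 55.1 ± 2.34, 52.2 ± 5.92 and 92.3 ± 13.8 CPM in No_Cre, Tek_Cre and Prx1_Cre. Ttk, the kinase MPS1, had means of 22.98 ± 1.899, 20.3 ± 2.12 and 40.2 ± 3.402 CPM in the same order. Both rose in Prx1_Cre, and neither passed the test in Tek_Cre (adjusted p = 0.488 for Mad2l1 and 0.0607 for Ttk).

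Of 4 genes of the APC/C and of sister separation, 3 rose in Prx1_Cre and 3 fell in Tek_Cre, with Pttg1 the exception in both. Cdc20, the activator of the APC/C, stood at 193, 189.8, 186 and 191 CPM in No_Cre, 128, 139, 142 and 133 CPM in Tek_Cre and 329, 329, 332 and 366 CPM in Prx1_Cre. Its level per length, 102, 72.6 and 182 CPM per kilobase of exon in No_Cre, Tek_Cre and Prx1_Cre, was the highest of the 51 genes in No_Cre and Prx1_Cre; in Tek_Cre Lbr at 74.9 and Ccnb2 at 74.8 CPM per kilobase stood above it. Its log2 fold change was 0.84 ± 0.04 in Prx1_Cre (adjusted p = 1.2e-14) and -0.49 ± 0.04 in Tek_Cre (adjusted p = 1.7e-09); its exons overlap those of Elovl1 on the opposite strand. Ube2c, the ubiquitin-conjugating enzyme of the APC/C, stood at 96.7, 100.1, 97.7 and 97.9 CPM in No_Cre, 76.6, 78.03, 83.6 and 82.6 CPM in Tek_Cre and 149.6, 154, 155 and 162 CPM in Prx1_Cre. Espl1, which cuts cohesin to part the sisters, stood at 61.3, 64.4, 55.4 and 63.5 CPM in No_Cre, 31.8, 35.5, 35.2 and 37.4 CPM in Tek_Cre and 87.5, 78.5, 87.1 and 98.1 CPM in Prx1_Cre. Both followed the order of the groups without overlap. Espl1 had the largest fall of the 51 genes in Tek_Cre, with a log2 fold change of -0.81 ± 0.07 (adjusted p = 5.64e-10), beside a rise of 0.52 ± 0.06 in Prx1_Cre. Pttg1, which encodes securin, the inhibitor of separase, stood at 40.6, 36.6, 39.6 and 38.4 CPM in No_Cre, 41.9, 45.00, 43.7 and 40.4 CPM in Tek_Cre and 39.2, 36.3, 36.6 and 38.1 CPM in Prx1_Cre. The Prx1_Cre values overlapped those of No_Cre (-0.05 ± 0.05, adjusted p = 0.433), and Tek_Cre was the highest group, with 1 library inside the No_Cre range. The rise in Tek_Cre was 0.14 ± 0.05 (adjusted p = 0.0409), and it did not pass the test in any of the 9 fits that left out No_Cre replicate 2, 3 or 4, Tek_Cre replicate 1, 2 or 3, or Prx1_Cre replicate 1, 2 or 3 (adjusted p 0.0527 to 0.137). In Prx1_Cre against Tek_Cre it was lower, at -0.18 ± 0.05 (adjusted p = 0.00401), with no overlap; with library totals as the only scaling both of these directions turn, to -0.21 and 0.15.

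All 6 genes of the centromere and kinetochore rose in Prx1_Cre (median 0.64), and 5 of 6 fell in Tek_Cre (median -0.46). Cenpa, the histone variant that marks centromeres, stood at 149, 142, 145 and 152 CPM in No_Cre, 105.3, 101, 99.6 and 105.2 CPM in Tek_Cre and 209, 211, 204 and 221 CPM in Prx1_Cre. Ndc80, which binds microtubules, stood at 35.1, 33.4, 35.7 and 34.6 CPM in No_Cre, 25.99, 23.3, 24.9 and 23.1 CPM in Tek_Cre and 58.4, 55.2, 60.3 and 48.8 CPM in Prx1_Cre. Neither gene overlapped between groups. The log2 fold changes in Tek_Cre and Prx1_Cre against No_Cre were -0.52 and 0.52 for Cenpa, and -0.51 and 0.68 for Ndc80. Nuf2, the partner of NDC80, stood at 25.7, 24.3, 29.1 and 25.99 CPM in No_Cre, 24.3, 23.7, 20.5 and 16.3 CPM in Tek_Cre and 59.6, 56.2, 55.8 and 39.5 CPM in Prx1_Cre. The Prx1_Cre libraries were all above the others, though replicate 4 was well under the other 3 (log2 fold change 1.01 ± 0.12, adjusted p = 2.53e-07); the fall in Tek_Cre (-0.32 ± 0.13, adjusted p = 0.0438) did not pass the test in DESeq2 (adjusted p = 0.0788), nor without any 1 of 5 libraries: No_Cre replicates 3 and 4, Tek_Cre replicates 3 and 4 and Prx1_Cre replicate 2 (adjusted p 0.0516 to 0.176). Spc25, of the same complex, had means of 30.1 ± 1.91, 29.8 ± 2.405 and 45.5 ± 7.38 CPM in No_Cre, Tek_Cre and Prx1_Cre, and it rose in Prx1_Cre (0.60 ± 0.09) without passing the test in Tek_Cre (adjusted p = 0.863). Cenpe, a kinetochore motor, stood at 20.6, 21.7, 19.7 and 20.3 CPM in No_Cre, 16.6, 15.3, 14.7 and 13.5 CPM in Tek_Cre and 40.2, 41.5, 44.95 and 36.95 CPM in Prx1_Cre, with no overlap between groups. Cenpf, which coats the outer kinetochore, stood at 41.5, 36.3, 37.9 and 35.9 CPM in No_Cre, 25.3, 31.2, 29.4 and 25.05 CPM in Tek_Cre and 45.7, 43.5, 41.4 and 39.3 CPM in Prx1_Cre. These long genes had the lowest levels per length of the 51, at 2.39 and 2.45 CPM per kilobase in No_Cre. Cenpe was 1.99-fold higher in Prx1_Cre than in No_Cre (0.99 ± 0.07). The change of Cenpf was 0.16 ± 0.07 (adjusted p = 0.033), the values of Prx1_Cre and No_Cre overlapped, and it did not pass the test without No_Cre replicate 2, 3 or 4 or Prx1_Cre replicate 1 or 2 (adjusted p 0.0669 to 0.12), or with a stricter filter (0.0938), library totals (0.0565) or upper-quartile factors (0.365). Its change in Tek_Cre was -0.46 ± 0.07 (adjusted p = 1.04e-05).

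The 5 kinesin motors all rose in Prx1_Cre (median 0.81), and 4 of 5 fell in Tek_Cre (median -0.34). Kif11 (Eg5), which pushes spindle poles apart, stood at 58.6, 64.1, 65.8 and 60.3 CPM in No_Cre, 61.7, 65.02, 53.7 and 55.1 CPM in Tek_Cre and 153, 148, 146 and 122 CPM in Prx1_Cre. Its Tek_Cre values overlapped those of No_Cre (-0.08 ± 0.07, adjusted p = 0.318), while each Prx1_Cre library was above every No_Cre library (1.19 ± 0.06, adjusted p = 4.84e-14). Kif20a, a kinesin of the spindle midzone, stood at 94.9, 101, 96.5 and 97.7 CPM in No_Cre, 61.3, 66.9, 64.8 and 59.3 CPM in Tek_Cre and 178, 164, 171 and 188 CPM in Prx1_Cre. Kif23, the motor of centralspindlin, stood at 50.6, 57.6, 53.2 and 53.6 CPM in No_Cre, 44.5, 45.96, 43.3 and 42.2 CPM in Tek_Cre and 77.6, 73.8, 77.6 and 76.1 CPM in Prx1_Cre. The groups stood apart for both, and in Prx1_Cre the log2 fold change was 0.50 ± 0.05 for Kif23 (adjusted p = 1.33e-09) and 0.84 ± 0.05 for Kif20a (adjusted p = 6.06e-14); exons of Kif20a overlap those of Cdc23 on the opposite strand. Kif2c, which depolymerises microtubules at centromeres, stood at 69.8, 80.3, 75.4 and 77.5 CPM in No_Cre, 61.2, 61.3, 57.3 and 58.9 CPM in Tek_Cre and 123, 126, 128 and 138 CPM in Prx1_Cre. Kif4, a chromosome-bound motor, stood at 38.2, 41.98, 43.4 and 42.6 CPM in No_Cre, 30.2, 35.8, 28.3 and 26.8 CPM in Tek_Cre and 71.5, 69.6, 72.9 and 77.2 CPM in Prx1_Cre. Neither overlapped between groups, and their log2 fold changes in Prx1_Cre against No_Cre were 0.76 ± 0.05 and 0.81 ± 0.06; exons of Kif4 overlap those of Pdzd11 on the opposite strand, which has 13630 counts in all libraries beside 3988, 2352 and 7762 for Kif4 in No_Cre, Tek_Cre and Prx1_Cre.

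The 6 spindle proteins rose in Prx1_Cre (median 0.73), and 4 of 6 fell in Tek_Cre (median -0.27). Hmmr, which encodes a receptor for hyaluronan that also binds spindle microtubules, stood at 27.9, 27.00, 28.8 and 30.7 CPM in No_Cre, 24.2, 20.8, 21.8 and 18.7 CPM in Tek_Cre and 85.4, 84.6, 79.03 and 76.4 CPM in Prx1_Cre. It had the largest rise of the 51 genes in Prx1_Cre, 2.85-fold over No_Cre (1.51 ± 0.06, adjusted p = 4.88e-16), with a fall in Tek_Cre (-0.42 ± 0.07, adjusted p = 3.07e-05), and its promoter is the first of those written out above. Tpx2, which activates Aurora A on the spindle, stood at 129.7, 130.2, 139 and 131 CPM in No_Cre, 92.5, 93.8, 89.9 and 82.5 CPM in Tek_Cre and 238, 227, 230.5 and 221 CPM in Prx1_Cre. Tacc3, which binds spindle microtubules with Aurora A, stood at 158, 156, 160.2 and 158 CPM in No_Cre, 117, 123, 121 and 127 CPM in Tek_Cre and 308, 301, 304 and 316 CPM in Prx1_Cre. In both the groups stood apart, with a rise in Prx1_Cre of 0.79 ± 0.04 and 0.96 ± 0.04 and changes in Tek_Cre of -0.57 ± 0.04 and -0.37 ± 0.04; Tacc3 overlaps exons of Tmem129 on the opposite strand. Prc1, which bundles the central spindle, stood at 76.5, 78.3, 84.7 and 80.5 CPM in No_Cre, 72.95, 72.6, 74.3 and 65.3 CPM in Tek_Cre and 126, 135, 128 and 120.02 CPM in Prx1_Cre, and its groups stood apart. Nusap1, which binds microtubules near chromosomes, stood at 69.1, 67.6, 70.5 and 71.8 CPM in No_Cre, 72.7, 70.9, 65.3 and 63.4 CPM in Tek_Cre and 111, 107, 107 and 89.4 CPM in Prx1_Cre. The Tek_Cre and No_Cre values of Nusap1 overlapped (-0.04 ± 0.06, adjusted p = 0.641), and its rise in Prx1_Cre was 0.57 ± 0.06 (adjusted p = 3.8e-09); exons of Oip5 lie on the opposite strand of Nusap1 and those of Rccd1 on that of Prc1. Ckap2, another microtubule-binding protein, had means of 27.6 ± 0.441, 25.6 ± 1.22 and 43.5 ± 2.31 CPM in No_Cre, Tek_Cre and Prx1_Cre and rose in Prx1_Cre (0.66 ± 0.06), with no call in Tek_Cre (adjusted p = 0.148).

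All 3 genes of cytokinesis rose in Prx1_Cre (median 0.66), and 2 of 3 fell in Tek_Cre (median -0.19). Anln, which encodes the anillin of the contractile ring, stood at 30.9, 29.1, 32.3 and 32.6 CPM in No_Cre, 29.98, 30.9, 28.9 and 25.5 CPM in Tek_Cre and 70.7, 68.6, 64.7 and 66.1 CPM in Prx1_Cre. Its Prx1_Cre libraries were all well above the rest (1.11 ± 0.06, adjusted p = 2.97e-14), and Tek_Cre overlapped No_Cre (-0.12 ± 0.06, adjusted p = 0.11). Racgap1, of the centralspindlin complex, stood at 154, 155, 153 and 149 CPM in No_Cre, 135, 124, 132 and 119 CPM in Tek_Cre and 214, 218, 216 and 218 CPM in Prx1_Cre. Ect2, the exchange factor that activates RHOA for furrowing, stood at 29.9, 30.9, 29.6 and 29.03 CPM in No_Cre, 28.9, 27.9, 21.9 and 25.9 CPM in Tek_Cre and 46.96, 48.9, 48.6 and 44.1 CPM in Prx1_Cre. For both, Prx1_Cre lay above the other groups, with rises of 0.50 ± 0.04 and 0.66 ± 0.07 on the log2 scale; the Tek_Cre change was -0.26 ± 0.04 (adjusted p = 9.51e-06) for Racgap1 and -0.19 ± 0.07 (adjusted p = 0.0235) for Ect2. The call for Ect2 in Tek_Cre was lost without No_Cre replicate 2 (adjusted p = 0.0639) or Tek_Cre replicate 3 (adjusted p = 0.118).

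The 6 genes of chromosome condensation had the highest median of the 10 roles in Prx1_Cre, 0.97, while 2 of 6 fell in Tek_Cre (median -0.21). That Tek_Cre count is near the background of 26.5%. Condensin is a ring of SMC2 and SMC4 closed by other subunits. Ncapg, a subunit of condensin I, stood at 23.1, 20.9, 23.2 and 21.1 CPM in No_Cre, 18.2, 18.4, 19.2 and 15.7 CPM in Tek_Cre and 65.02, 63.99, 60.5 and 39.99 CPM in Prx1_Cre. Replicate 4 of Prx1_Cre was the lowest of its group and still above all No_Cre libraries (1.38 ± 0.11, adjusted p = 2.5e-09). In Tek_Cre the values were all below those of No_Cre, with an adjusted p just above the threshold of 0.05 in the main fit. Ncapg passed the test there under some other settings, among them RLE factors (adjusted p = 0.0385), no filter (0.0104) and a replicate block (0.00197). Exons of Lcorl lie on the opposite strand. Ncapd2, of the same complex, stood at 251, 265, 252 and 264 CPM in No_Cre, 193, 194, 216 and 212 CPM in Tek_Cre and 332, 330.2, 317 and 370.4 CPM in Prx1_Cre, and the groups stood apart. The ring subunits rose in Prx1_Cre, by 1.37 ± 0.07 for Smc2 and 0.93 ± 0.06 for Smc4, and neither passed the test in Tek_Cre (adjusted p = 0.335 and 0.338); their means in No_Cre, Tek_Cre and Prx1_Cre were 46.8 ± 1.43, 44.2 ± 2.996 and 121 ± 14.7 CPM for Smc2. The means of Smc4 in that order were 62.9 ± 4.03, 59.7 ± 3.05 and 119.9 ± 11.9 CPM. Top2a, the topoisomerase that untangles sister DNA, had means of 163 ± 8.54, 152 ± 12.2 and 329 ± 31.6 CPM, with a rise in Prx1_Cre (1.02 ± 0.06) and no call in Tek_Cre (adjusted p = 0.17).

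Mki67 (chr7:135689784-135716361) encodes Ki-67, the protein most used to mark cycling cells, which coats mitotic chromosomes. It stood at 99.8, 104, 109 and 102 CPM in No_Cre, 68.3, 65.98, 65.7 and 63.01 CPM in Tek_Cre and 126, 118, 115 and 112 CPM in Prx1_Cre. The groups did not overlap, with a log2 fold change of -0.66 ± 0.05 in Tek_Cre (adjusted p = 3.2e-11) and of 0.19 ± 0.04 in Prx1_Cre (adjusted p = 0.000634), both against No_Cre. The rise did not pass the test with upper-quartile scaling (0.09, adjusted p = 0.069), which lowered the median of all genes in that comparison to -0.111. Cenpf, Mki67, Bub3 and Cdk1 had the 4 smallest rises that passed the test in Prx1_Cre. The largest falls in Tek_Cre besides that of Mki67 were those of Aurka, Tpx2, Kif20a and Espl1, with log2 fold changes of -0.62, -0.57, -0.63 and -0.81.

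Both genes of the nuclear envelope rose in Prx1_Cre. Lmnb1, which encodes lamin B1, stood at 135, 132, 136 and 144 CPM in No_Cre, 113, 117, 109 and 112 CPM in Tek_Cre and 202, 206, 213 and 219 CPM in Prx1_Cre. The groups stood apart, with 0.62 ± 0.04 in Prx1_Cre (adjusted p = 9.99e-13) and -0.28 ± 0.04 in Tek_Cre (adjusted p = 3.87e-06). Lbr, the lamin B receptor, which is also known for a role in the nuclear shape of maturing granulocytes, stood at 352, 345, 362 and 353 CPM in No_Cre, 355, 357, 369 and 345 CPM in Tek_Cre and 623, 630.2, 627 and 632 CPM in Prx1_Cre. The Tek_Cre libraries overlapped those of No_Cre (0.01 ± 0.03, adjusted p = 0.765), and all Prx1_Cre libraries were above them (0.83 ± 0.03, adjusted p = 2.65e-16).

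**Figure D4:**
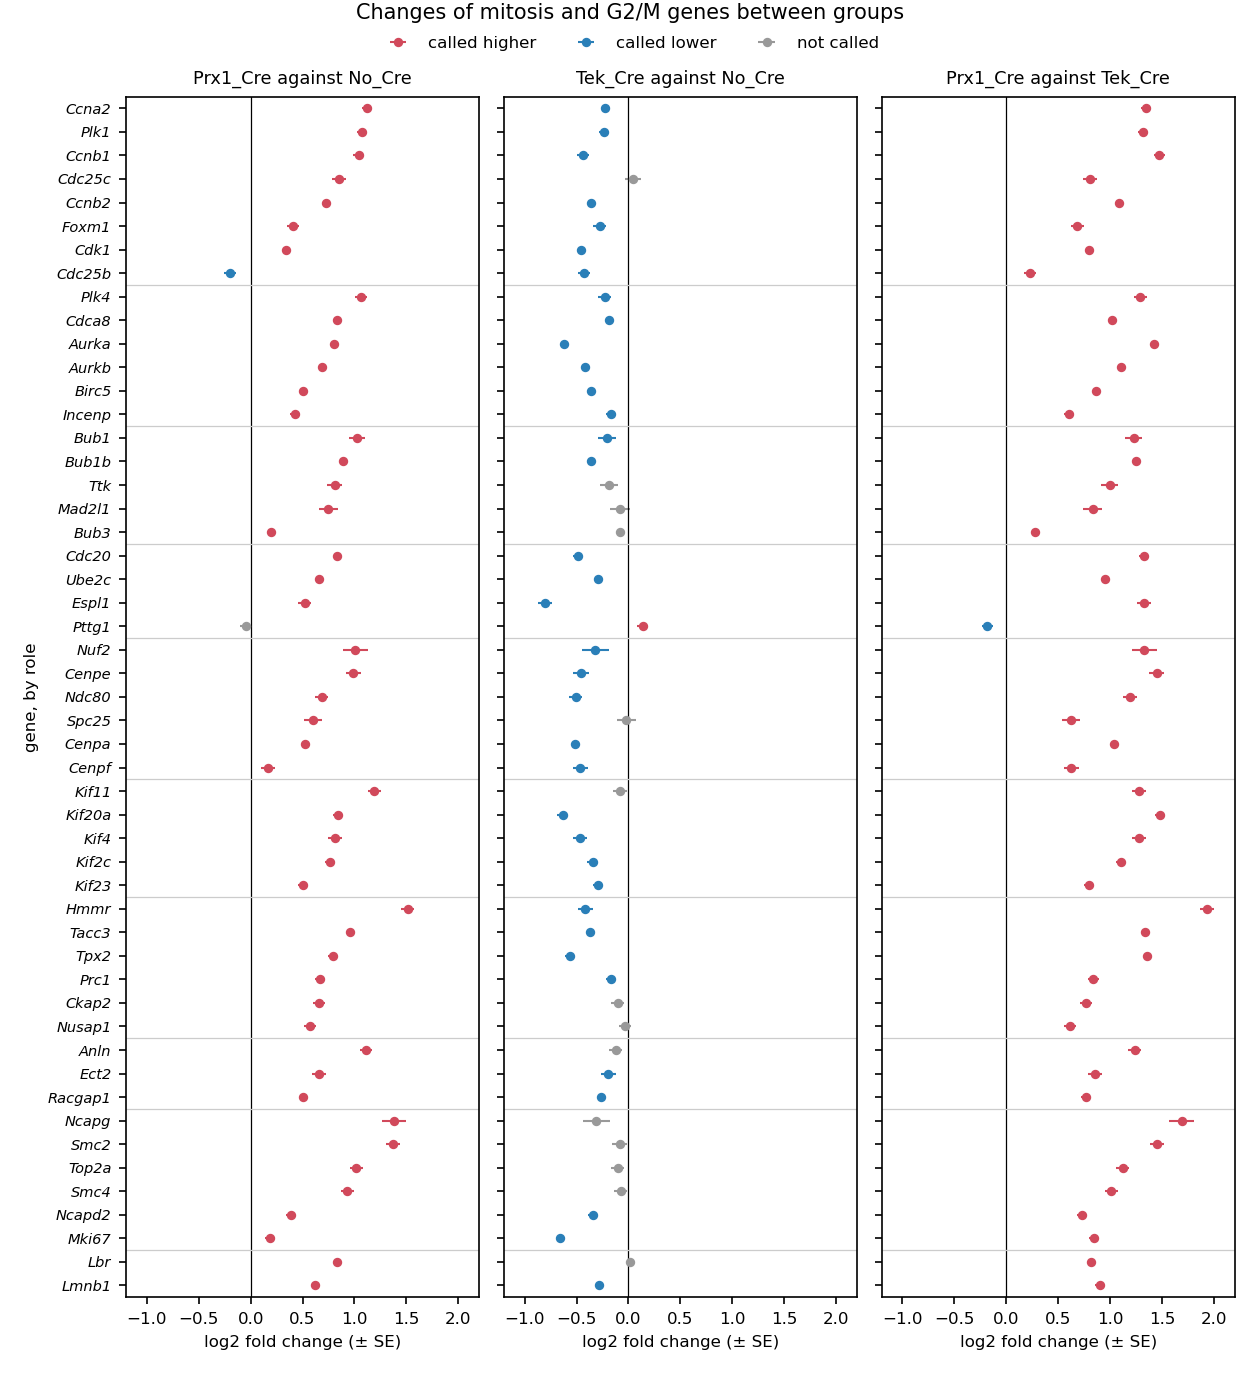
Log2 fold change (points, with bars of 1 SE) of each of the 51 genes, by role, in 3 panels for Prx1_Cre against No_Cre, Tek_Cre against No_Cre and Prx1_Cre against Tek_Cre, which share libraries; red was called higher, blue lower and grey not called. In the first panel nearly all points lie right of 0, with Hmmr farthest at 1.51, and in the Tek_Cre panel most lie left of 0, with Espl1 farthest at -0.81.

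Other genes of the same processes, outside the 51, were counted in the same fit. Of all genes tested, 36.7% rose and 39.0% fell in Prx1_Cre against No_Cre, and 26.4% rose and 26.5% fell in Tek_Cre against No_Cre. Of 35 other centromere and kinetochore genes, 27 rose and 1 fell in Prx1_Cre against No_Cre (median log2 fold change 0.50), and 4 rose and 22 fell in Tek_Cre against No_Cre (median -0.20). The extremes in Prx1_Cre were Zwilch, of the complex that brings dynein to kinetochores (1.497 ± 0.10), and Cenpb, which binds centromeric repeats (-0.65 ± 0.05). Of 32 other spindle, kinesin and midbody genes tested, 29 rose and 1 fell in Prx1_Cre (median 0.56), from Numa1 (-0.38 ± 0.05), of the spindle poles, to the kinesin Kif18a (1.41 ± 0.10). In Tek_Cre 0 rose and 17 fell (median -0.26). Of 19 other condensin and cohesin genes, 17 rose and 1 fell in Prx1_Cre (median 0.61) and 3 rose and 6 fell in Tek_Cre (median -0.05). The Tek_Cre counts of this list are near the shares of all genes. Its extremes in Prx1_Cre were Ncapg2 of condensin II (1.48 ± 0.07) and the cohesin loader Nipbl (-0.30 ± 0.06).

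Regulators, APC/C subunits, centrosome genes and S phase genes were counted likewise. Of 24 other regulators of mitotic entry and exit tested, 15 rose and 3 fell in Prx1_Cre (median 0.33), from Cdc14b, a phosphatase (-1.23 ± 0.25), to Trip13, which recycles MAD2 (0.91 ± 0.06); 3 rose and 15 fell in Tek_Cre (median -0.21). Of 15 genes of APC/C subunits and its enzyme UBE2S, 7 rose and 3 fell in Prx1_Cre (median 0.11), from Anapc13 (-0.31 ± 0.05) to Cdc27 (0.61 ± 0.07), and 3 rose and 3 fell in Tek_Cre (median 0.01). These counts stand beside 36.7% higher and 39.0% lower of all genes in Prx1_Cre and 26.4% and 26.5% in Tek_Cre, and those in Tek_Cre are near that background; without No_Cre replicate 1, 2 or 3 or Tek_Cre replicate 3, the fallen APC/C genes in Tek_Cre number 1. Among 15 genes of centrosome duplication, 8 rose and 1 fell in Prx1_Cre (median 0.33), from Pcnt, which encodes pericentrin (-0.75 ± 0.05), to Ccp110, which caps centrioles (0.90 ± 0.08), and 2 rose and 6 fell in Tek_Cre (median -0.06). Of 13 genes of the DREAM and MYB-MuvB complexes tested, 9 rose and 3 fell in Prx1_Cre (median 0.31), with E2f5 at -0.50 ± 0.12 and Mybl2, the activating partner of MuvB, at 1.16 ± 0.05, and 1 rose and 6 fell in Tek_Cre (median -0.14). Of 40 S phase genes, 36 rose and 1 fell in Prx1_Cre (median 0.53) and 2 rose and 19 fell in Tek_Cre (median -0.14). The extremes in Prx1_Cre were Ccne1, the cyclin of S phase entry (2.05 ± 0.05), and the clamp loader gene Rfc2 (-0.18 ± 0.04); Ccne1 also rose in Tek_Cre (0.76 ± 0.06). With library totals alone, which lower the median of all genes in Tek_Cre against No_Cre to -0.346, 39 S phase genes fall there, as do 14 of the APC/C list, 14 condensin and cohesin genes, 30 spindle genes, 11 centrosome genes and 12 DREAM and MYB-MuvB genes. Small counts also moved with single libraries: in Tek_Cre against No_Cre the risen condensin and cohesin genes number 1 without Tek_Cre replicate 1 or 2 and 5 without Prx1_Cre replicate 4. The risen centrosome genes there number 1 without No_Cre replicate 1 or 2 or Tek_Cre replicate 1 or 2, and 4 without Tek_Cre replicate 4. Without Tek_Cre replicate 4 the risen S phase genes number 4, and without Tek_Cre replicate 1 or 4 the risen spindle genes number 1. In Prx1_Cre against No_Cre the fallen centrosome genes number 2 without Prx1_Cre replicate 2 or 4.

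**Figure D5:**
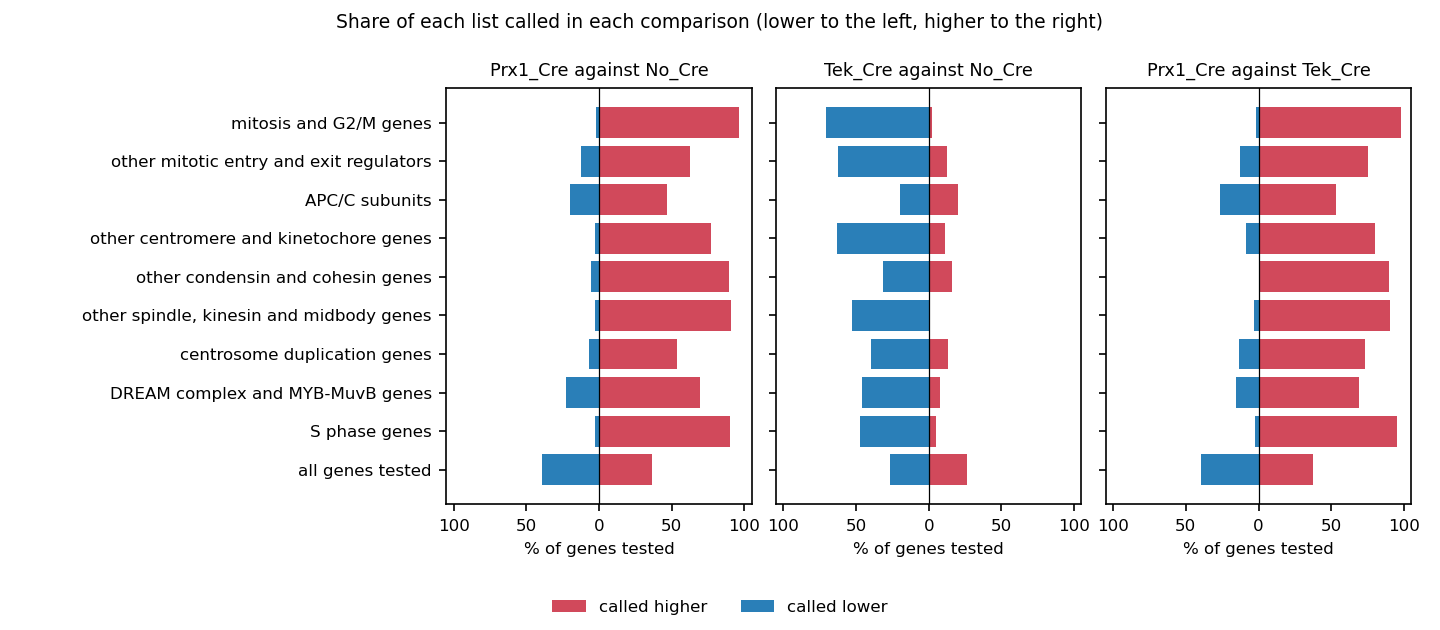
Percentage of the genes tested in each list that were called higher (bars to the right) or lower (bars to the left) at an adjusted p under 0.05, in the 3 comparisons, with all genes tested in the lowest row. For the spindle, kinetochore and S phase lists most calls are higher in Prx1_Cre and lower in Tek_Cre, and for the APC/C subunits 3 of 15 are called in each direction in Tek_Cre against No_Cre.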

How the data were processed

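The deposited table holds raw counts per gene in whole numbers, with 48795 versioned Ensembl identifiers and 1 column for each of the 12 libraries. Per the submitters' processing notes, which give tools without roles, the authors used HTSeq 0.9.1, STAR 2.5.3a, DESeq2 1.18.1 and Trim Galore 0.4.4 with build GRCm38. The annotation release and the strand setting are not given in the sources used here, so reads of overlapping genes on opposite strands may not be separated. Libraries came from very little RNA amplified without stated molecular identifiers, which can add noise at low counts.

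Symbols were matched through GENCODE M21 for 48349 identifiers, and 446 had none. Library groups came from the sample titles. Genes were filtered with filterByExpr by group, leaving 14756, scaled by TMM factors and compared with the edgeR 4.0.16 quasi-likelihood test (robust, all 12 libraries in one fit, group as the only term) in R 4.3.3, with Benjamini-Hochberg adjustment over all genes tested. An adjusted p under 0.05 counts as a rise or a fall; glmTreat on the same fit tested against a 1.5-fold change. CPM are scaled by TMM factors, values per kilobase use the union of exons, and errors are SD over 4 libraries or SE of a log2 fold change. The scripts were tested on simulated data. Alternatives were DESeq2 1.42.0, other scaling factors and filters, fewer libraries and a replicate block. Residual correlations of same-numbered libraries were low, from -0.019 to 0.143, with 1 of 12 over 0.1. Those of replicate 4 were 0.143 (Tek_Cre with Prx1_Cre), 0.079 (No_Cre with Prx1_Cre) and 0.045 (No_Cre with Tek_Cre). Differently numbered libraries reached 0.041. A trait shared by the replicate 4 libraries was not tested. No pair of libraries within a group was alike within sampling noise. The chi-square per degree of freedom of a pair, which grows with its differences, was 11.5 to 14.3 for Prx1_Cre pairs with replicate 4. For the other Prx1_Cre pairs it was 1.8 to 2.22. In Tek_Cre it reached 7.8, between replicates 1 and 4. Plots were drawn with matplotlib 3.10.9.

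The genes and lists were chosen with earlier results of these data known. Values in every library are given for the gene with the largest and the smallest change of each role in Prx1_Cre against No_Cre, for Mki67, Cdk1, Ccnb1, Plk1, Foxm1 and Aurka, for those not called higher in Prx1_Cre, and for those called in opposite directions in Prx1_Cre and Tek_Cre. From each other list the largest and smallest changes are named, and 4 promoters are printed.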

Additional observations from a re-analysis of the deposited data

Results flagged for a closer look

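In 6 of 153 groups of 4 values (51 genes in 3 groups), 1 library stood apart from the other 3 by more than Dixon's 95% limit for 4 values allows, the measure being the gap to the nearest value divided by the range. Chance alone flags about 1 in 20 such groups. In Tek_Cre, replicate 4 was high for Aurka at 61.7 CPM, with the other libraries from 58.9 to 59.3 CPM, and low for Ccna2 at 90.6 CPM, with the others from 98.99 to 99.6 CPM. In Prx1_Cre, replicate 4 was high for Cdc20 at 366 CPM, with the others from 329 to 332 CPM. In No_Cre, replicate 2 was high for Cdc25b at 47.0 CPM, with the others from 41.8 to 42.4 CPM. Replicate 3 of No_Cre was high for Cdk1 at 126 CPM, with the others from 117 to 118 CPM, and for Tpx2 at 139 CPM, with the others from 129.7 to 131 CPM. Each of these values stayed on its group's side of the other groups.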

How the results depend on the processing

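The directions in Prx1_Cre against No_Cre and against Tek_Cre depended little on the processing. With one library left out at a time, 48 to 49 of the 51 genes rose and 1 to 1 fell against No_Cre, with 28 to 32 past 1.5-fold and a median of 0.755 to 0.781; against Tek_Cre 50 to 50 rose and 1 to 1 fell, with 43 to 45 past 1.5-fold and a median of 1.024 to 1.076. Upper-quartile factors gave 47 higher and 2 lower genes (Cdc25b and Pttg1) against No_Cre. The median with them was 0.667 against No_Cre and 0.960 against Tek_Cre. Genes higher past 1.5-fold numbered 31 against No_Cre and 44 against Tek_Cre in the main fit. They numbered 25 and 42 with upper-quartile factors, and 27 and 43 in DESeq2. A filter of 5 CPM in 4 libraries gave a median of 0.726 against No_Cre. Against Tek_Cre, library totals alone gave 0 lower genes, a median of 1.372 and Pttg1 at 0.150 (adjusted p = 0.0166). In Tek_Cre against No_Cre, library totals alone gave a median of -0.638 and turned Cdc25c to -0.302 (adjusted p = 0.00115), Pttg1 to -0.211 (adjusted p = 0.00165) and Lbr to -0.334 (adjusted p = 2.32e-09); all 51 genes were lower there, 22 of them past 1.5-fold. The rise of Pttg1, the 1 higher gene, became 0 with upper-quartile or RLE factors, library totals alone, no filter, the 8 libraries compared alone, or without immunoglobulin genes. With one library left out, 0 to 1 rose, 34 to 40 fell, and the median was -0.303 to -0.276. A replicate block gave 40 lower genes in Tek_Cre against No_Cre, beside 36 in the main fit, and 1 higher. It gave 49 higher in Prx1_Cre against No_Cre and 50 against Tek_Cre. TMM factors ran from 1.085 to 1.091 in No_Cre, 0.8397 to 0.8679 in Tek_Cre and 1.058 to 1.084 in Prx1_Cre. Immunoglobulin genes held 25.2 to 26% of the counts of Tek_Cre libraries and less in the other groups. The cause of the shifts between settings was not tested. Of 459 values of single genes under other settings, 454 kept direction and call in Prx1_Cre against No_Cre, 417 in Tek_Cre against No_Cre and 458 in Prx1_Cre against Tek_Cre. In Tek_Cre against No_Cre, 30 of the 459 gained a call, 9 lost one and 3 turned direction. With one library left out, 12 of 612 gained a call and 21 lost one. Bub3, Ttk, Ncapg and Top2a were called lower with the 8 libraries compared alone (edgeR adjusted p = 0.0216, 0.0309, 0.000523 and 0.0372).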
